A study of Mus musculus with 6 samples.

Results

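The genes described here encode the contractile actin and myosin machinery of cells, the smooth muscle type proteins of mammary myoepithelial cells, the small GTPases that steer that machinery, and the proteins that nucleate, cut and anchor actin filaments. They were chosen by symbol from a list of 49 genes, of which 48 had a probe set of their own among the 18193 genes measured. Rock2 was not analysed here. They fall into 4 role groups, with 14 smooth muscle and myoepithelial contractile genes, 16 nonmuscle actin, myosin, tropomyosin and crosslinker genes, 8 small GTPases and effectors, and 10 genes of filament turnover, nucleation and membrane linkage.

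Gene expression was profiled on 6 Affymetrix mouse genome arrays, 1 for each sample, from Wnt1-YL cells, a line grown from a mammary tumor of a mouse whose Wnt1 transgene is driven by the MMTV promoter. In 3 samples (shSca-1) the cells carried a pLKO lentiviral shRNA against Sca-1, the surface protein encoded by Ly6a, and in 3 samples (shLuc) they carried a control shRNA against luciferase. All cells were selected with puromycin and cultured with serum, insulin and EGF. The study asked how repression of Sca-1 alters gene expression in cells that differ in migration and adhesion. The samples are 1 cell line, the labels do not say whether replicates came from separate infections, and p-values therefore measure the spread between these samples.

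Contraction depends on myosin II, whose heavy chains pull on actin filaments once the regulatory light chain is phosphorylated by myosin light chain kinase or by the kinase ROCK. Myoepithelial cells form the basal layer of the mammary gland, hold smooth muscle actin and myosin, and squeeze milk from the alveoli when oxytocin binds its receptor. Many of these genes are targets of serum response factor (SRF), which binds the CArG box together with the MRTF cofactors, and free actin monomers hold the MRTFs back in the cytoplasm.

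The intensities were model values normalized by the authors, with array medians between 37.3 and 38.4 in shSca-1 cells and between 38.2 and 40.6 in shLuc cells. Ly6a had an intensity of 285, 314 and 306 in shSca-1 cells, against 7646, 7362 and 2843 in shLuc cells. One array, shLuc replicate 3, stood apart from the other 5. The summed intensity of 15 luminal epithelium markers was between 638 and 658 on the shSca-1 arrays, against 644, 618 and 22363 on shLuc replicates 1, 2 and 3, while that of 10 basal markers, Krt5 and Krt14 among them, was between 52614 and 58048 in shSca-1 cells, against 53627, 54140 and 34683 in shLuc cells. None of the luminal markers passed an adjusted p under 0.05 with or without this array. The part of this array's marker levels in the results was not tested, so most log2 fold changes are given on all 6 arrays and again without it. In whole-culture RNA, fewer cells of a type and less RNA per cell cannot be told apart.

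On 6 arrays, 0 of the 48 genes passed an adjusted p under 0.05 from limma in either direction, and 0 of all 18193 genes did (0%). At the thresholds of the methods, an unadjusted p under 0.01 and a fold over 1.5, 4 of the 48 genes were lower in shSca-1 cells (8.33%, against 1.52% of all genes) and 0 were higher (against 0.528% of all genes). The 4 genes, Myl9, Actg2, Srf and Synpo, all belong to the smooth muscle and myoepithelial group. At an unadjusted p under 0.05 alone, 8 genes were lower (16.7%, against 7.05% of all genes) and 1 was higher (2.08%, against 3.57%). Without shLuc replicate 3, 10 of the 48 genes were lower at an adjusted p under 0.05 (20.8%, against 2.73% of all genes), and 0 were higher, against 1.17% of all genes. These were Myl9, Actg2, Srf, Synpo and Acta2 of the contractile group, the crosslinker Actn4, the GTPase group genes Rhob, Rhoc and Wasl, and the membrane linker Msn. Bright probe sets are called more often, and among the 2229 genes with a geometric mean intensity of 1000 or more the lower share was 6.01%, with 4 of 32 of these genes lower (12.5%). Over the 2229 genes, shLuc replicates 1 and 2 differed by a median of 0.044 in log2 intensity, against 0.090 to 0.142 between shSca-1 arrays. The shLuc replicate 3 array differed from them by 0.267 and 0.286. Without it, the shLuc spread in the fit comes from replicates 1 and 2 alone, which were unusually alike.

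The genes did not shift as a body. The median log2 fold change (shSca-1 minus shLuc) over the 48 genes was 0.04 on 6 arrays and -0.05 without shLuc replicate 3, beside -0.04 for all genes both times. On 6 arrays 26 of the genes had a positive and 22 a negative value. The values of the groups did not overlap for 10 genes that were lower in shSca-1 cells (20.8%, against 11.5% of all genes) and for 7 that were higher (14.6%, against 7.18% of all genes). With 3 arrays in each group the smallest two-sided p of an exact permutation test is 0.1, so the tests are those of the limma fit over all probe sets.

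**Figure D1:**
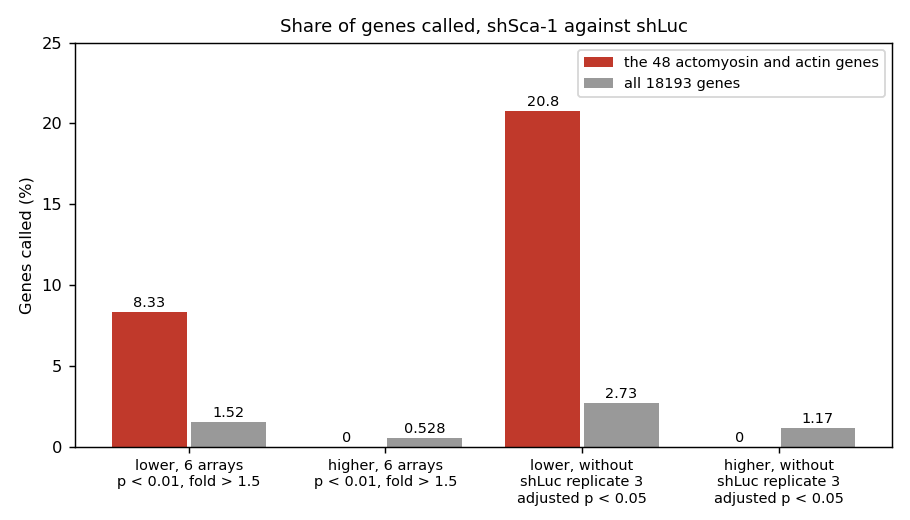
Share of genes called in %, for the 48 actomyosin and actin genes (red) and all 18193 genes (grey), by threshold and direction. Of the 48 genes 8.33% were lower on 6 arrays and 20.8% without shLuc replicate 3, and 0 were higher under either rule.

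**Figure D2:**
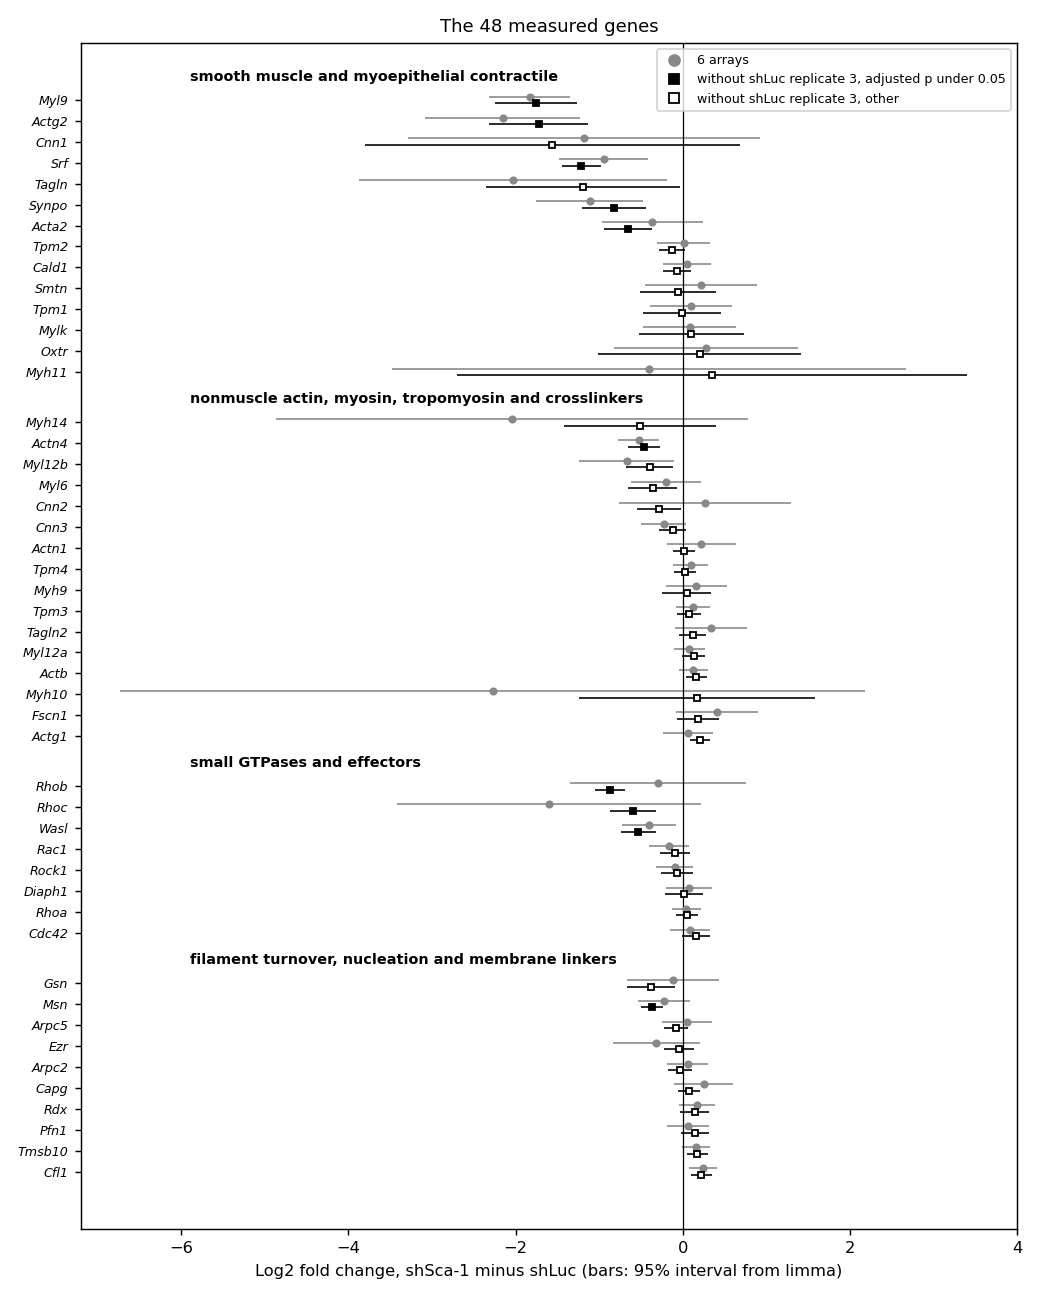
Difference in log2 intensity between shSca-1 and shLuc for the 48 genes by role group, on 6 arrays (grey) and without shLuc replicate 3 (squares, filled where the adjusted p from limma was under 0.05), with 95% intervals. Filled squares lie left of 0, and 5 of the 10 are in the contractile group.

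At an unadjusted p under 0.01 and a fold over 1.5, 4 of the 14 smooth muscle and myoepithelial contractile genes were lower on 6 arrays, against 1.52% of all genes. Without shLuc replicate 3 an adjusted p under 0.05 was reached by 5 of the 14, all lower, while 2.73% of all genes were lower. The median log2 fold change of the 14 genes was -0.38 on 6 arrays, where 8 were negative and 6 positive. Without shLuc replicate 3 it was -0.39, with 11 negative and 3 positive. Among all 18193 genes 9935 were negative on 6 arrays and 9936 without that array. Beside the contractile genes, the 10 basal markers had a median of 0.12 on 6 arrays and of -0.32 without shLuc replicate 3, where 6 were negative, 1 was lower (Krt17) and 1 was higher (Sparc) at an adjusted p under 0.05. The part of the basal markers in the contractile values was not tested. Myl9, the regulatory light chain of smooth muscle myosin, had an intensity of 68.6, 60.9 and 46.3 in shSca-1 cells, against 215, 177 and 230 in shLuc cells. Each shSca-1 array lay below each shLuc array, and shLuc replicate 3 was close to the other shLuc arrays. The means were 58.6 ± 11.4 in shSca-1 cells and 207 ± 27.1 in shLuc cells (SD, n = 3 each), a log2 fold change of -1.83 (standard error, SE, of 0.20, adjusted p = 0.063 from limma) on 6 arrays and -1.75 (adjusted p = 0.010 from limma) without shLuc replicate 3.

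Actg2, the gamma actin of enteric smooth muscle, had 37.2, 45.8 and 29.6 in shSca-1 cells, against 139, 107 and 300 in shLuc cells. The groups did not overlap, and the highest value was that of shLuc replicate 3. Its log2 fold change was -2.16 (SE 0.39, adjusted p = 0.18 from limma), and -1.72 (adjusted p = 0.017 from limma) without that array. The shSca-1 values lay near the array medians, and a floor of 64 on all intensities gave -1.36 on 6 arrays. Synpo, which encodes the actin-binding protein synaptopodin, had 151, 186 and 221 in shSca-1 cells, against 322, 330 and 595 in shLuc cells. It showed the same arrangement, with no overlap and the highest value on shLuc replicate 3. Its log2 fold change was -1.12 (SE 0.27, adjusted p = 0.30 from limma), and -0.83 (adjusted p = 0.044 from limma) without shLuc replicate 3.

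Srf, the transcription factor that acts at many of these genes, had 274, 315 and 313 in shSca-1 cells, against 685, 708 and 401 in shLuc cells. The shSca-1 arrays were alike and below all shLuc arrays, of which replicate 3 was the lowest. Mean intensities were 301 ± 23.1 in shSca-1 cells and 598 ± 171 in shLuc cells (SD, n = 3 each). The log2 fold change was -0.95 (SE 0.23, adjusted p = 0.29 from limma) on 6 arrays and -1.21 (adjusted p = 0.0029 from limma) without shLuc replicate 3. A second probe set of Srf had a log2 fold change of -0.69 on 6 arrays and -1.08 (adjusted p = 0.012 from limma) without that array.

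Acta2, the smooth muscle alpha actin that marks myoepithelial cells, had 6193, 6090 and 4630 in shSca-1 cells, against 9056, 8603 and 4776 in shLuc cells. Within the shLuc group, replicates 1 and 2 lay above all shSca-1 arrays and replicate 3 among them. The log2 fold change was -0.36 (95% interval -0.97 to 0.24, adjusted p = 0.72 from limma) on 6 arrays and -0.66 (adjusted p = 0.037 from limma) without shLuc replicate 3. Tagln, which encodes the actin-binding protein transgelin, had 61.9, 87.9 and 22.8 in shSca-1 cells, against 120, 108 and 648 in shLuc cells. The groups did not overlap, but the size of the difference rested on shLuc replicate 3. The log2 fold change was -2.03 (SE 0.78, adjusted p = 0.51 from limma), and -1.19 (adjusted p = 0.29 from limma) without that array.

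Several defining genes of smooth muscle were under the array medians in both groups, or near them in the case of Mylk, and none of them passed. Cnn1, calponin of smooth muscle, had 4.18, 10.1 and 1.00 in shSca-1 cells, against 12.4, 8.53 and 4.69 in shLuc cells. Myh11, the smooth muscle myosin heavy chain, had 7.07, 1.00 and 11.3 in shSca-1 cells, against 11.0, 1.04 and 16.2 in shLuc cells. Oxtr, the oxytocin receptor, had 27.8, 19.0 and 17.9 in shSca-1 cells, against 10.6, 32.1 and 15.8 in shLuc cells. All 3 genes overlapped between the groups. Mylk, the myosin light chain kinase, had 37.0, 36.1 and 48.6 in shSca-1 cells, against 41.8, 33.6 and 39.0 in shLuc cells, with a log2 fold change of 0.08 (95% interval -0.47 to 0.63) on 6 arrays and 0.10 without shLuc replicate 3.

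The other contractile genes were far above the array medians, and on their brightest probe sets none of them passed on 6 arrays or without shLuc replicate 3. Tpm1 and Tpm2, tropomyosins that line the actin filament, had log2 fold changes of 0.10 (95% interval -0.40 to 0.59) and 0.01 (95% interval -0.30 to 0.33) on 6 arrays, and of -0.01 and -0.13 without shLuc replicate 3. Cald1, caldesmon, which restrains myosin on the filament, had 0.05 (95% interval -0.24 to 0.33) on 6 arrays and -0.07 without that array. Its other probe sets had between -1.41 and 0.51 without that array, among them -0.53 (adjusted p = 0.020 from limma). Smtn, smoothelin, overlapped between the groups, with 689, 735 and 1134 in shSca-1 cells, against 837, 899 and 488 in shLuc cells, and log2 fold changes of 0.22 on 6 arrays and -0.06 without shLuc replicate 3.

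**Figure D3:**
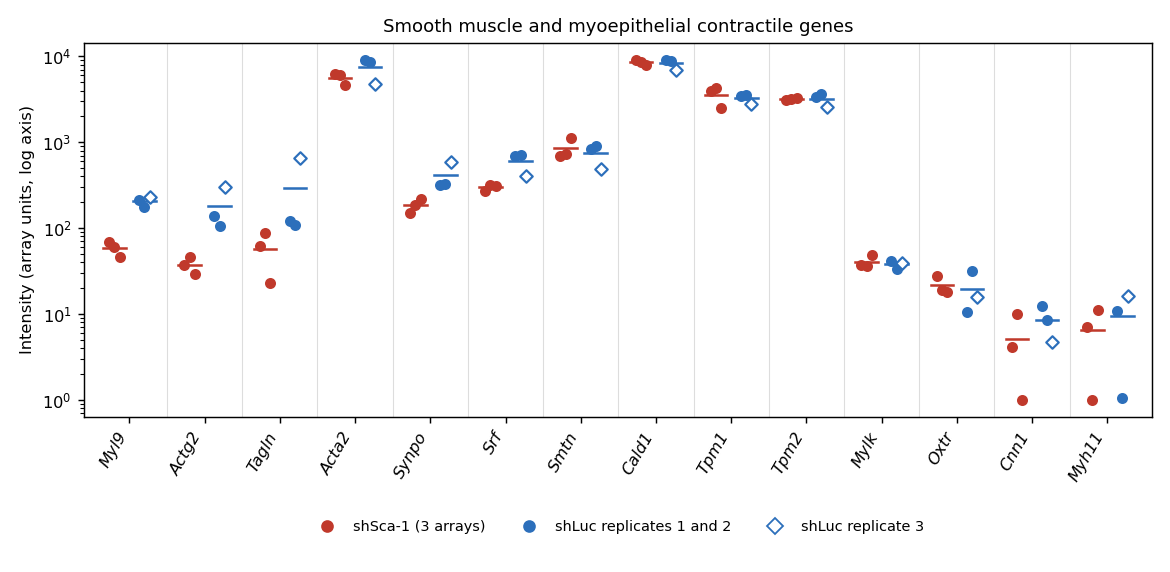
Intensity of the 14 contractile genes on each array (log axis, array units), with shSca-1 in red and left of shLuc in blue, lines at the means of 3 arrays, and shLuc replicate 3 as an open diamond. Myl9, Actg2, Tagln, Synpo and Srf are lower without overlap between the groups, as are 11.5% of all genes. Acta2 overlaps only through shLuc replicate 3.

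The calls rested on few arrays. Myl9 and Actg2 stayed past an unadjusted p under 0.01 and a fold over 1.5 whichever array was left out. Srf had an unadjusted p from limma between 0.0135 and 0.0197 when any 1 array other than shLuc replicate 3 was left out, and Synpo had 0.021 without shSca-1 replicate 1 and 0.017 without shSca-1 replicate 2. Of the 10 genes lower without shLuc replicate 3, leaving out shSca-1 replicate 1 as well left 3 (Myl9, Rhob and Srf), leaving out shSca-1 replicate 2 left 2 (Rhob and Srf), and leaving out shSca-1 replicate 3 gave all 10 and 1 more. Leaving out shLuc replicate 1 or 2 as well, so that 1 shLuc array remained and was assumed to vary like the shSca-1 arrays, left 0 of the 48 genes, with 1 and 0 of all genes.

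The promoters are shown because SRF binds the CArG box. The box is CC, then 6 bases of A or T, then GG, and reads alike on both strands. RefSeq promoter windows of the GRCm38.p6 build, from 250 bases before to 50 after the start site, were found for 41 of the 49 genes. Actb, Actg2, Diaph1, Myh11, Rac1, Rock1, Synpo and Tagln had no window, so their promoters were not searched. A CArG box lay in 1.63% of all 32851 windows and in 1.81% of the 27025 genes with a window. A CArG-like match, with 1 G or C among the 6 bases, lay in 8.5% of windows and 9.69% of genes. Of the 41 genes 5 had a CArG box (Myl9, Srf, Actg1, Cnn2 and Myl6) and 6 a CArG-like match (Acta2, Myl9, Gsn, Myl12a, Rdx and Tpm3). The box of Myl9 began 161 bases before the start site and its CArG-like match 99 before, those of Srf began 82 and 62 before, and Acta2 had CArG-like matches 84 and 34 before. The 250 bases before the start site of 3 genes that were lower without shLuc replicate 3, and of Actg1 and Cnn2, which have a box and were not called, read as follows, 5′ to 3′ on the strand of the gene, with boxes and CArG-like matches in capitals.
Myl9 (chr2:156775214-156775463, plus strand): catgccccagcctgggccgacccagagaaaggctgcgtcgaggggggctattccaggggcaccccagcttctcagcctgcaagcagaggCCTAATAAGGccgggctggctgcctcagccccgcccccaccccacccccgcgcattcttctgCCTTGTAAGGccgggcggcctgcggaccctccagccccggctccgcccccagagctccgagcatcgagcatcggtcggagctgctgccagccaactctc
Srf (chr17:46556163-46556412, minus strand): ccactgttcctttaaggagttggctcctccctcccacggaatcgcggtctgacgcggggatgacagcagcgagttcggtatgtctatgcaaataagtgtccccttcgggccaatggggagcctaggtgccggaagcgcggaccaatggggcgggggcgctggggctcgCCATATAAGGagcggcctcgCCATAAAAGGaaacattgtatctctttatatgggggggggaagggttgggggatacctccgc
Acta2 (chr19:34255374-34255623, minus strand): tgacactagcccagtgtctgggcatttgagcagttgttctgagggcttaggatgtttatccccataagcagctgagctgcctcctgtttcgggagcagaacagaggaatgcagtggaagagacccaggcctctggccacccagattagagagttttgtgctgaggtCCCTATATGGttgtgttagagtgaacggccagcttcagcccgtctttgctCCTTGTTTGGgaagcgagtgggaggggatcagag
Actg1 (chr11:120348496-120348745, minus strand): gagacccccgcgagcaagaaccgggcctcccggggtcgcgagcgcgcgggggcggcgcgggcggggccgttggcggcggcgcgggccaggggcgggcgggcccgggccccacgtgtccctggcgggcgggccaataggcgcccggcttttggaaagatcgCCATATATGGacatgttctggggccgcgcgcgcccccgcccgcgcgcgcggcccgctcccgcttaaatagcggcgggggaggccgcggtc
Cnn2 (chr10:79988350-79988599, plus strand): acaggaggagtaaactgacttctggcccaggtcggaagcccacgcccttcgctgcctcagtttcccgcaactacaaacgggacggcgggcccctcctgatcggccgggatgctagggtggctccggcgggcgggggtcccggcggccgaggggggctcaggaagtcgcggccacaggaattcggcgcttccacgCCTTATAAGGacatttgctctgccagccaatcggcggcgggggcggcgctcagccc

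On the arrays, the genes with a box differed in their values. Myl9 and Srf were lower without shLuc replicate 3. Actg1, cytoplasmic gamma actin, had 12764, 12702 and 12600 in shSca-1 cells, against 11041, 11005 and 14793 in shLuc cells, and a log2 fold change of 0.06 (adjusted p = 0.91 from limma) on 6 arrays and 0.20 (adjusted p = 0.099 from limma) without shLuc replicate 3. Cnn2, a calponin of nonmuscle cells, had 2941, 2919 and 2285 in shSca-1 cells, against 3222, 3374 and 1039 in shLuc cells, with 0.27 (adjusted p = 0.88 from limma) on 6 arrays and -0.29 (adjusted p = 0.26 from limma) without that array. The direction of Cnn2 thus turned with shLuc replicate 3, its lowest array. Myl6, an essential myosin light chain, had -0.20 (adjusted p = 0.78 from limma) on 6 arrays and -0.36 (adjusted p = 0.21 from limma) without shLuc replicate 3, on the probe set assigned to it alone. For 2 brighter probe sets that it shares with other symbols, the values were -0.07 and -0.12 on 6 arrays. Without shLuc replicate 3 they were -0.07 and -0.13. The mean intensities of these 2 in shLuc cells were 6590 and 6057, against 181 for the probe set of Myl6 alone. A match is a run of letters, and binding was not measured.

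Of 22 other SRF and MRTF targets and cofactors, all measured, 2 were lower on 6 arrays at an unadjusted p under 0.01 and a fold over 1.5 and 0 were higher. Their median log2 fold change was -0.03 on 6 arrays and -0.20 without shLuc replicate 3, where 16 of 22 were negative, 4 were lower at an adjusted p under 0.05 and 0 were higher. Of all genes, 1.52% were lower and 0.528% higher by the first rule, and 2.73% lower and 1.17% higher by the second. Among those with a geometric mean intensity of 1000 or more, 6.01% were lower by the second rule. Without shLuc replicate 3, 9936 of all 18193 genes were negative. Filip1l, a filamin A interacting protein, had 615, 644 and 448 in shSca-1 cells, against 1288, 1177 and 889 in shLuc cells. Its log2 fold change was -0.97 (adjusted p = 0.21 from limma) on 6 arrays and -1.13 (adjusted p = 0.014 from limma) without shLuc replicate 3. Fhl1, a LIM domain protein of muscle, had 35.2, 58.8 and 30.0 in shSca-1 cells, against 181, 129 and 497 in shLuc cells. Like Actg2 it was highest on shLuc replicate 3, with a log2 fold change of -2.51 (adjusted p = 0.23 from limma) on 6 arrays, and without that array it was -1.95 (adjusted p = 0.024 from limma). Csrp1 and Fblim1, LIM proteins of actin bundles and adhesions, were picked once their values had been seen. On 6 arrays they had -0.28 and -0.50, and without shLuc replicate 3 -0.71 (adjusted p = 0.0061 from limma) and -0.64 (adjusted p = 0.027 from limma). Ier2, an immediate early gene, had -0.38 on 6 arrays (adjusted p = 0.40 from limma) and -0.42 (adjusted p = 0.093 from limma) without that array. Without it, 6 of 22 were positive, among them Ccn2, Fos and Ccn1, also picked once their values had been seen. Ccn2 had 2093, 2069 and 387 in shSca-1 cells, against 371, 310 and 2924 in shLuc cells. Its log2 fold change was 0.77 on 6 arrays and 1.81 (adjusted p = 0.22 from limma) without shLuc replicate 3. Fos had 0.37 and 0.54, and Ccn1 0.39 and 0.35. The cofactors Mrtfa and Mrtfb had -0.13 and -0.21 on 6 arrays and -0.29 and -0.23 without shLuc replicate 3, none of which passed.

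**Figure D4:**
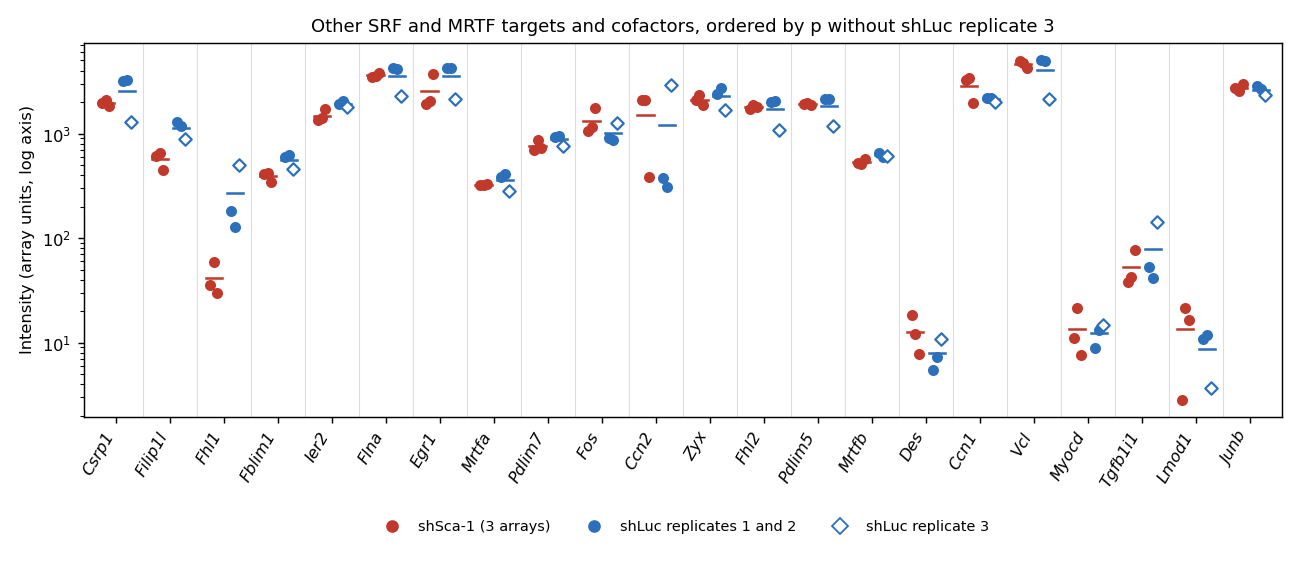
Intensity of 22 other SRF and MRTF targets and cofactors on each array (log axis, array units), ordered by p without shLuc replicate 3, with shSca-1 in red and left of shLuc in blue, lines at the means of 3 arrays, and shLuc replicate 3 as an open diamond. Filip1l, Fhl1, Fblim1, Ier2 and Mrtfb are lower without overlap between the groups, as are 11.5% of all genes. On shLuc replicate 3 Csrp1 was 1301, below the shSca-1 arrays.

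Among the 16 nonmuscle genes, 0 passed an unadjusted p under 0.01 and a fold over 1.5 on 6 arrays. Without shLuc replicate 3, 1 of 16 was lower at an adjusted p under 0.05. Of all genes 2.73% were, and of those with a geometric mean intensity of 1000 or more 6.01%. The group had a median log2 fold change of 0.09 on 6 arrays and 0.03 without shLuc replicate 3. Actn4, an alpha-actinin that crosslinks filaments in motile cells, had 1741, 1921 and 1974 in shSca-1 cells, against 2476, 2702 and 2962 in shLuc cells. The groups did not overlap and shLuc replicate 3 was near its group. Actn4 had a log2 fold change of -0.53 (SE 0.10, adjusted p = 0.21 from limma) on 6 arrays, below the 1.5-fold threshold, and -0.46 (adjusted p = 0.029 from limma) without shLuc replicate 3. Its relative Actn1 had 0.22 on 6 arrays and 0.01 without shLuc replicate 3.

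The nonmuscle counterparts of the regulatory light chain, Myl12a and Myl12b, were set beside Myl9. Myl12b had 1474, 1596 and 1987 in shSca-1 cells, against 2177, 2224 and 3904 in shLuc cells. Its groups did not overlap, with a log2 fold change of -0.67 (adjusted p = 0.48 from limma) on 6 arrays and -0.40 (adjusted p = 0.15 from limma) without shLuc replicate 3. Myl12a had 9421, 9161 and 8807 in shSca-1 cells, against 8394, 8310 and 9235 in shLuc cells, with a log2 fold change of 0.08 (95% interval -0.11 to 0.27) on 6 arrays and 0.13 without shLuc replicate 3. The transcripts of these genes are closely alike, and hybridization of one to probes of the other was not tested.

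The nonmuscle myosin heavy chains did not pass. Myh9, of myosin IIA, had 5336, 3987 and 3957 in shSca-1 cells, against 4173, 4319 and 3331 in shLuc cells, with a log2 fold change of 0.16 (95% interval -0.21 to 0.53) on 6 arrays and 0.05 without shLuc replicate 3. Myh10, of myosin IIB, had 7.18, 9.33 and 7.89 in shSca-1 cells, against 4.32, 12.01 and 1148 in shLuc cells. Myh14, of myosin IIC, had 29.5, 16.6 and 35.7 in shSca-1 cells, against 43.0, 31.9 and 888 in shLuc cells. Both Myh10 and Myh14 were high on shLuc replicate 3 alone, the array with high luminal markers, and at or under the array medians, or just above them, on the other 5.

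On their brightest probe sets, the remaining nonmuscle genes were close between the groups. Tagln2, a transgelin of nonmuscle cells, had 4488, 4827 and 5085 in shSca-1 cells, against 4431, 4405 and 2797 in shLuc cells. It was higher without overlap, with a log2 fold change of 0.34 (adjusted p = 0.64 from limma) on 6 arrays and 0.12 without shLuc replicate 3. Cnn3, an acidic calponin, was lower without overlap, with -0.23 (adjusted p = 0.60 from limma) and -0.12. Actb, the gene of cytoplasmic beta actin, was between 13546 and 13670 in shSca-1 cells and between 11958 and 13060 in shLuc cells, a log2 fold change of 0.12 on 6 arrays and 0.16 without shLuc replicate 3. The bundling protein gene Fscn1 had 0.41 (adjusted p = 0.61 from limma) on 6 arrays and 0.18 without shLuc replicate 3, and Tpm3 and Tpm4 had 0.13 and 0.09 on 6 arrays and 0.07 and 0.02 without that array.

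Of the 8 small GTPases and effectors, 0 passed on 6 arrays and 3 were lower without shLuc replicate 3, and in 2 of them that array decided the size. Without it, 2.73% of all genes were lower at an adjusted p under 0.05, and 6.01% of those with a geometric mean intensity of 1000 or more. Rhob, an endosomal small GTPase induced by growth factors, had 1187, 1259 and 1126 in shSca-1 cells, against 2112, 2248 and 654 in shLuc cells. Its shSca-1 arrays lay between shLuc replicate 3 and the other shLuc arrays. The log2 fold change was -0.30 (95% interval -1.35 to 0.76, adjusted p = 0.87 from limma) on 6 arrays and -0.87 (adjusted p = 0.0039 from limma) without shLuc replicate 3. Rhoc, a small GTPase of motile tumor cells, had 221, 231 and 193 in shSca-1 cells, against 336, 312 and 2646 in shLuc cells. The groups did not overlap, and shLuc replicate 3 was far above all others. The log2 fold change of Rhoc was -1.60 (SE 0.77, adjusted p = 0.59 from limma) on 6 arrays and -0.59 (adjusted p = 0.046 from limma) without that array.

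Wasl, N-WASP, which links Cdc42 to the Arp2/3 complex, had 740, 757 and 842 in shSca-1 cells, against 1182, 1069 and 868 in shLuc cells. The groups did not overlap, by a narrow gap at shLuc replicate 3. Its log2 fold change was -0.41 (SE 0.14, adjusted p = 0.45 from limma) on 6 arrays and -0.53 (adjusted p = 0.028 from limma) without shLuc replicate 3. The other GTPases and effectors did not pass. Rhoa was between 4545 and 4608 in shSca-1 cells and between 4404 and 4535 in shLuc cells, a log2 fold change of 0.04 (95% interval -0.13 to 0.21) on 6 arrays. Rac1, which drives lamellipodia, had 4477, 4920 and 5280 in shSca-1 cells, against 5208, 5215 and 5992 in shLuc cells, with -0.16 (95% interval -0.40 to 0.08). Cdc42, of filopodia, had 0.09 (95% interval -0.15 to 0.32), and the effectors Rock1, a myosin-activating kinase, and Diaph1, a formin, had -0.09 (95% interval -0.32 to 0.13) and 0.08 (95% interval -0.20 to 0.35) on 6 arrays. Without shLuc replicate 3 the values were 0.05 for Rhoa, -0.09 for Rac1, 0.16 for Cdc42, -0.07 for Rock1 and 0.01 for Diaph1.

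**Figure D5:**
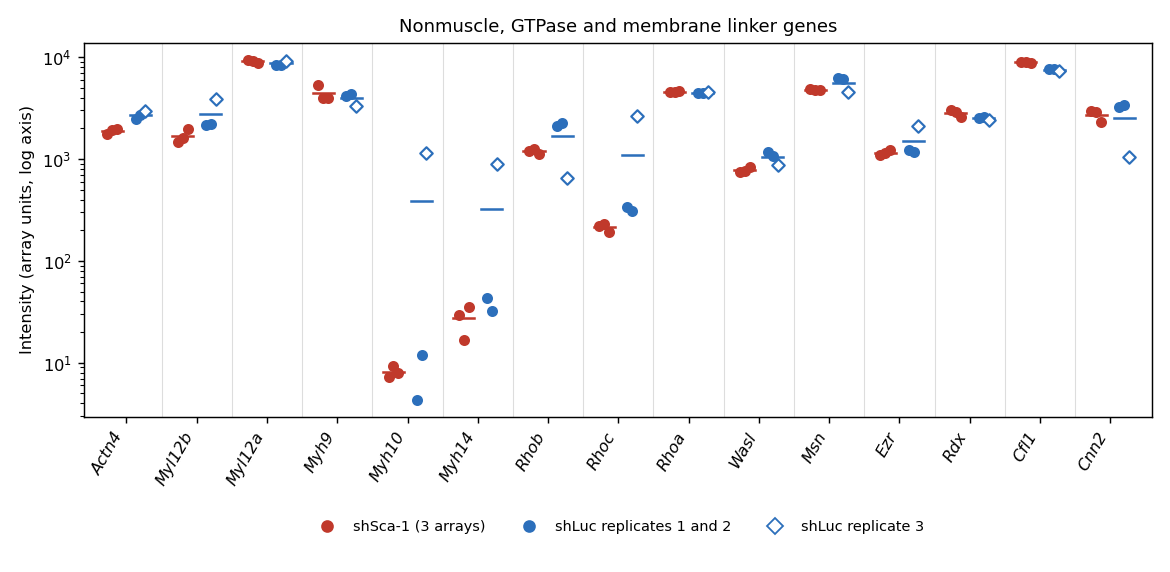
Intensity of 15 nonmuscle, GTPase, filament turnover and linker genes on each array (log axis, array units), with shSca-1 in red and left of shLuc in blue, lines at the means of 3 arrays, and shLuc replicate 3 as an open diamond. Rhob and Cnn2 are low and Myh10, Myh14 and Rhoc are high on shLuc replicate 3. On 6 arrays Actn4, Myl12b, Rhoc and Wasl are lower without overlap, as are 11.5% of all genes. Rhoa, Rdx and Cfl1 are higher without overlap, as are 7.18% of all genes.

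Of 21 myosin light chain kinases, phosphatase subunits and GTPase modulators measured, 0 passed on 6 arrays in either direction, with 1 higher and 2 lower at an unadjusted p under 0.05 from limma. Without shLuc replicate 3, 1 was higher and 0 were lower. That gene, Ect2, an exchange factor of cytokinesis that was chosen after its values were seen, had 1433, 1380 and 1459 in shSca-1 cells, against 1091, 962 and 1652 in shLuc cells, with a log2 fold change of 0.25 on 6 arrays and 0.48 (adjusted p = 0.027 from limma) without shLuc replicate 3. The smallest p on 6 arrays belonged to Arhgef2, a guanine nucleotide exchange factor, with a log2 fold change of -0.40 (adjusted p = 0.38 from limma). Ssh1, a phosphatase that activates cofilin, had -0.51 (adjusted p = 0.39 from limma), and Racgap1, a GTPase-activating protein of cytokinesis, had 0.30 (adjusted p = 0.53 from limma). Without shLuc replicate 3 these values were -0.38 for Arhgef2, -0.42 for Ssh1 and 0.40 for Racgap1, none of which passed.

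The 10 genes of filament turnover, nucleation and membrane linkage had a median log2 fold change of 0.06 on 6 arrays and 0.02 without shLuc replicate 3. Msn, moesin, which ties filaments to the plasma membrane, had 4846, 4717 and 4764 in shSca-1 cells, against 6187, 6145 and 4549 in shLuc cells. The 3 shSca-1 arrays were alike and lay between shLuc replicate 3 and the other shLuc arrays. Msn had a log2 fold change of -0.22 (adjusted p = 0.66 from limma) on 6 arrays and -0.37 (adjusted p = 0.020 from limma) without that array, and a second probe set had -0.43 (adjusted p = 0.034 from limma) without it. The related linkers ezrin and radixin did not pass. Ezr had -0.32 (95% interval -0.84 to 0.20) on 6 arrays, with 2090 on shLuc replicate 3 and no more than 1217 elsewhere, and -0.05 without that array, and Rdx had 0.17 (95% interval -0.04 to 0.38), with no overlap, and 0.14 without that array.

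Cfl1, cofilin, which severs old filaments, was higher in shSca-1 cells without overlap, with 8909, 9034 and 8788 in shSca-1 cells, against 7612, 7656 and 7298 in shLuc cells. The arrays of each group were alike, shLuc replicate 3 included. Its log2 fold change was 0.24 (95% interval 0.08 to 0.41, adjusted p = 0.37 from limma) on 6 arrays and 0.22 (adjusted p = 0.083 from limma) without shLuc replicate 3, and neither passed. Tmsb10, a thymosin that holds actin monomers, had 14872, 14222 and 14099 in shSca-1 cells, against 12622, 12882 and 13249 in shLuc cells, with 0.16 (adjusted p = 0.57 from limma) on 6 arrays and 0.17 without shLuc replicate 3. Capg, a capping protein, was also higher without overlap, with 0.25 (95% interval -0.10 to 0.60) on 6 arrays and 0.07 without that array. The remaining genes overlapped between the groups on 6 arrays, with log2 fold changes of 0.06 for profilin (Pfn1), 0.06 and 0.05 for the Arp2/3 subunit genes Arpc2 and Arpc5, and -0.12 for gelsolin (Gsn), which cuts and caps filaments. Without shLuc replicate 3 these were 0.15 for Pfn1, -0.03 and -0.08 for Arpc2 and Arpc5, and -0.38 (adjusted p = 0.18 from limma) for Gsn, which then had no overlap, with 1763, 1985 and 1445 in shSca-1 cells, against 2233 and 2226 on shLuc replicates 1 and 2 and 1302 on shLuc replicate 3.

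Of 27 further Arp2/3, WAVE, formin, capping and filament genes measured, 1 was lower on 6 arrays at an unadjusted p under 0.01 and a fold over 1.5 and 0 were higher, with a median log2 fold change of -0.08. By this rule 1.52% of all genes were lower and 0.528% higher. Without shLuc replicate 3, 2.73% of all genes were lower at an adjusted p under 0.05. Arpc1a, a subunit of the Arp2/3 complex that branches filaments, had 433, 482 and 451 in shSca-1 cells, against 811, 789 and 1293 in shLuc cells. The groups did not overlap, with a log2 fold change of -1.05 (SE 0.20, adjusted p = 0.20 from limma) on 6 arrays and -0.81 (adjusted p = 0.0074 from limma) without shLuc replicate 3. Coro1b, a coronin of lamellipodia, had 987, 1055 and 1220 in shSca-1 cells, against 1677, 1678 and 1146 in shLuc cells, and was the other gene of this list that was lower without that array (-0.45 on 6 arrays and -0.63, adjusted p = 0.020 from limma, without it). Diaph3, a formin, had 0.35 (adjusted p = 0.45 from limma) on 6 arrays and 0.40 (adjusted p = 0.11 from limma) without that array.

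Markers of other cell types were measured as summed lists. The summed intensity of 7 vascular smooth muscle and pericyte markers was between 218 and 364 in shSca-1 cells, against 216, 220 and 490 in shLuc cells, that of 9 fibroblast markers was between 287 and 455, against 249, 202 and 1287, and that of 9 endothelial and leukocyte markers was between 396 and 519, against 623, 596 and 291. Single markers lay well above the array medians, among them Cd68, a macrophage marker, with 53.9, 77.6 and 212 in shSca-1 cells, against 311, 298 and 32.9 in shLuc cells, Pdgfra with up to 292 in shSca-1 cells, and Pdpn with 901 on shLuc replicate 3, all chosen after their values were seen. Cd68 was a large part of its list's sum on shLuc replicates 1 and 2. Adgre1, another macrophage marker, overlapped between the groups, with 150, 164 and 140 in shSca-1 cells, against 147, 139 and 111 in shLuc cells. Ptprc, a leukocyte marker under the array medians, was higher without overlap, with a log2 fold change of 1.04 on 6 arrays. Of the markers in these lists 0 passed in either direction on 6 arrays or without shLuc replicate 3, while 2 were higher and 2 were lower at an unadjusted p under 0.05 from limma on 6 arrays. By that last rule 3.57% of all genes were higher and 7.05% lower. Of the basal markers, Krt17 was lower in shSca-1 cells, with 831, 825 and 1171, against 1583, 1655 and 1454 in shLuc cells (-0.75 on the log2 scale, adjusted p from limma 0.23 on 6 arrays and 0.037 without shLuc replicate 3). Sparc, a matrix protein gene, was higher, with 0.43 (adjusted p = 0.18 from limma) on 6 arrays and 0.40 (adjusted p = 0.021 from limma) without that array.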

How the data were processed

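RNA of 3 shSca-1 and 3 shLuc samples was hybridized to Affymetrix arrays of the mouse genome with 45101 probe sets. The authors computed the deposited intensity values with dChip (PM-MM model, invariant set normalization), whose version and genome build are not given in the sources used here. Log2 was taken after raising values below 1 to 1. After 64 control probe sets were left out, 45037 were fitted with lmFit and trended eBayes of limma 3.58.1 (R 4.3.3), with Benjamini-Hochberg adjustment over all of them and no replicate block. Each gene is its brightest probe set among those with 1 symbol in the platform annotation (18193 genes). The precision is limited by the 3 arrays of each group.

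The genes and lists were chosen with earlier results of these data known. Named genes are 9 contractile genes chosen for their role, every gene past a threshold, the 3 smallest p of each role group, up to 3 of each other list, and paralogs of named genes. Of 128 genes in other lists 120 were measured. The model was tested on simulated data. Alternatives covered normalization, floors of 16 and 64, a filter at the 40 percentile, variance models, the methods' t-test, the mean of all probe sets, a replicate block and leaving out arrays. Promoters are from RefSeq (GRCm38.p6).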

Additional observations from a re-analysis of the deposited data

How the results depend on the processing

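The count of 4 genes lower at an unadjusted p under 0.01 and a fold over 1.5 stayed at 4 with quantile normalization, with arrays centred on their medians, with the filter on dim probe sets and with robust variance, in each case the same 4 genes. It was 2 with intensities under 16 set to 16 or with no trend in the variance, 1 with intensities under 64 set to 64 or with the methods' t-test, and between 2 and 7 when 1 array was left out. With each gene's probe sets averaged, 2 were lower and 1 was higher (Tagln2). Without shLuc replicate 3, the 10 genes lower at an adjusted p under 0.05 were 9 with quantile normalization, 10 with centred arrays and 0 with intensities under 64 set to 64, a setting in which 20 of all genes passed. With a further array left out, between 0 and 11 were lower and between 0 and 4 were higher, the 4 (Actg1, Cfl1, Fscn1 and Tmsb10) when it was shSca-1 replicate 3. These settings were chosen after seeing the data. The cause of these differences was not tested. The median log2 fold change of the 48 genes was between -0.054 and 0.036 when 1 array was left out, the lowest without shLuc replicate 3. None of the 4 genes called on 6 arrays turned its direction under these alternatives. Of the 10 genes called without shLuc replicate 3, Rhob had a log2 fold change of 0.02 when shLuc replicate 2 was left out instead, the opposite direction, and the other 9 kept theirs.

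Of all genes, 96 were higher and 276 lower, against 38 higher and 142 lower with a floor of 64, 60 and 179 with the methods' t-test, and 52 to 196 and 170 to 530 when 1 array was left out, the most without shLuc replicate 3. The lower share of called genes was 74.2%, 60.8% with quantile normalization and 62.8% with centred arrays.

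Arrays with the same replicate number deviated from their group means with correlations of -0.04, -0.02 and -0.03, so the numbers were not taken as pairs. With a replicate block, 5 of the 48 genes were lower, the same 4 and Myl12b. Genes under the array medians are near background, where values vary widely between arrays of 1 group.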

Other observations

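Probe sets of 1 gene did not always give the same value. Cald1 is represented above by its brightest probe set, with a log2 fold change of -0.07 without shLuc replicate 3, whereas another had 2801, 2992 and 2596 in shSca-1 cells, against 4236, 3854 and 1861 in shLuc cells, and -0.53 (adjusted p = 0.020 from limma) without shLuc replicate 3. A second bright probe set of Wasl had -0.27 (adjusted p = 0.25 from limma) without that array, against -0.53 for the brightest. Of the probe sets of Myh9, the brightest had 0.05 without that array and another -0.29 (adjusted p = 0.19 from limma). A dim probe set of Tagln2, with 26.5, 23.1 and 31.1 in shSca-1 cells, against 8.03, 12.7 and 8.90 in shLuc cells, had a log2 fold change of 1.46 on 6 arrays (adjusted p = 0.26 from limma), against 0.34 for the brightest. On 6 arrays the other probe sets of Fscn1 had log2 fold changes of 0.74, 0.60 and 0.49, against 0.41 for the brightest. Those of Tpm3 had 0.53, 0.29 and 0.27, all higher without overlap, and -0.18, against 0.13 for the brightest. None of these probe sets of Fscn1 and Tpm3 passed an adjusted p under 0.05 on 6 arrays. Which part of a transcript each probe set reads was not analysed here.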
